A study of Mus musculus with 4 samples.

Results

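The clustered histone genes make the bulk of the histone protein that packs newly copied DNA. H2A, H2B, H3 and H4 form the core particle around which DNA is wrapped, and H1 binds the linker between particles. Their messages are made mainly while DNA is copied, and most end in a conserved stem-loop bound by Slbp in place of a poly(A) tail; some cluster genes can also yield polyadenylated messages, a form known in cells that have left the cell cycle. The genes were chosen by symbol: 67 of 32285 annotated genes had a name that starts with Hist1h, Hist2h, Hist3h or Hist4h, and the 62 with at least 20 unique molecular identifiers (UMIs, counted RNA molecules) over 4 libraries are described here. Of these, 50 lay in the Hist1 cluster on chromosome 13, 9 in Hist2 on chromosome 3 and 2 in Hist3 on chromosome 11, and Hist4h4 lay on chromosome 6 (GRCm38). They coded for 5 H1, 16 H2A, 16 H2B, 12 H3 and 13 H4 histones. Hist2h3c2 with 156 UMIs and Hist1h3h with 232 were just inside the limit, and Hist1h1t with 18 and Hist2h2aa2 with 10 were just outside. Hist1h2bq, Hist1h2aa and Hist1h2ba had 5, 1 and 0 UMIs.

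Spleen cells came from 4 female C57BL/6J mice by droplet single-cell RNA sequencing of poly(A) RNA. The D3TA group was 2 mice heterozygous for a CRISPR/Cas9 knock-in in Ccnd3, which codes for a D-type cyclin, that puts alanine in place of threonine at codon 283 in every cell, and the WT group was 2 wild-type mice. Mice were 12 and 16 months old, when D3TA animals have a myeloproliferative neoplasm, and the labels do not tie an age to a mouse. The knock-in is global and constitutive, so no group isolates its action in 1 cell type. Each mouse gave 1 library, and a pair of values below is replicate 1 and then replicate 2 of the genotype named. D3TA libraries held 143811696 and 114430052 UMIs in 15294 and 13399 barcodes, and WT libraries held 83507825 and 81416981 UMIs in 25829 and 9888 barcodes. Kept cells had median UMIs of 8111 and 7698 in D3TA and of 1394 and 8009 in WT, so WT replicate 1 stood apart by its shallow cells. Pairs of libraries shared 32 to 127 barcodes. Levels are CPM, the UMIs of a gene scaled to the same total of UMIs in every sum of cells, and levels are compared within a gene, not between genes.

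The ends and starts of a few genes are shown first because the results below divide the genes by them. The stem-loop was searched after the stop codon as GG, any 2 letters, CTTTT, any letter, AG, any 2 letters and CC, on the transcript strand, in GENCODE's GRCm38 transcripts. It was found in 42 of the 62 genes, against 86 of 66743 coding transcripts in the annotation, a share of 0.129%. Of the 20 genes without a match, 13 were annotated with nothing past the stop codon, so their missing match says nothing of their message. In the lines below, capitals mark the 16 matched letters and lower case marks up to 5 bases on each side. The first 6 genes had more RNA in mature than in earlier neutrophils of D3TA spleens, and the next 6 had less. The next 6 also rose in cells of the G2/M gate, as did the first 6 apart from Hist3h2a.
Hist1h1c: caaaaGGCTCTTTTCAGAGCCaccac
Hist1h2ac: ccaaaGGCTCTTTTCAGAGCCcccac
Hist1h2be: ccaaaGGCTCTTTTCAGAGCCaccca
Hist1h4i: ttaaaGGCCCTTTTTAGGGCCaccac
Hist2h2aa1: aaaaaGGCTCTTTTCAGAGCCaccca
Hist3h2a: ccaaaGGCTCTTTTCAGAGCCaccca
Hist1h2ap: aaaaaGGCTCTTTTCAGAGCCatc
Hist1h2ae: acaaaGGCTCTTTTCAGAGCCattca
Hist1h3c: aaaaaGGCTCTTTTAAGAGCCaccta
Hist1h4d: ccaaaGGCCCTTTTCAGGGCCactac
Hist1h4m: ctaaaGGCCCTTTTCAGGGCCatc
Hist1h4n: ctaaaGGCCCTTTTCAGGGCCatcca

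Most of the first 6 genes had a long annotated end past the stop codon. It was 880 bases in Hist1h1c (13:23738808-23740367, plus strand), 2058 in Hist1h2ac (13:23681467-23683948, minus strand), 1906 in Hist1h2be, 376 in Hist1h4i and 1700 in Hist3h2a. In Hist2h2aa1 it was 109. Hist1h2bc, which behaved like them, had 742 bases and no match. The length was 57 bases in Hist1h2ap (13:21833026-21833507, minus strand), 199 in Hist1h2ae and 114 in Hist1h3c, while it was 822 in Hist1h4d. The genes shown do not stand for the full list. Of 20 tested genes with at least 300 bases past the stop codon, 10 were higher and 6 lower in immature than in mature neutrophils of D3TA spleens. The release behind the authors' counts is not given in the sources used here.

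A pair of linker histone promoters is shown because the genes went opposite ways along the neutrophil gates: Hist1h1b fell and Hist1h1c climbed toward the mature gate. Each line is 250 bases before to 50 bases after the start in RefSeq's table (GRCm38.p6), at chr13:21780576-21780875 on the minus strand for Hist1h1b and chr13:23738557-23738856 on the plus strand for Hist1h1c. Capitals mark matches on both strands to the H1 box, spelled AAACACA. They also mark the letters CCAAT where a CCAAT box matched. The TATA box was searched as TATAAA, which is also in capitals where it matched.
Hist1h1b: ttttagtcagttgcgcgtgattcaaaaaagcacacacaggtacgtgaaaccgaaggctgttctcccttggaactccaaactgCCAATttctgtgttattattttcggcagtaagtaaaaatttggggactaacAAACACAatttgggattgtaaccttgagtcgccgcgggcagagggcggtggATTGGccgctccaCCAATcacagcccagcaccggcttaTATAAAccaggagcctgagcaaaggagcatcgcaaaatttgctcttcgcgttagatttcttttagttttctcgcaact
Hist1h1c: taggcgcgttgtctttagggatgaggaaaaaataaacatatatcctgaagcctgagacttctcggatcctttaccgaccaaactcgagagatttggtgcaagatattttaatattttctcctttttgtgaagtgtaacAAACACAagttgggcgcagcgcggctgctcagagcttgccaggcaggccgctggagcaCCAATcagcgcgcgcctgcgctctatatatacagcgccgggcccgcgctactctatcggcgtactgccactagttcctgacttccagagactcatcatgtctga
Both held the H1 box and CCAAT, and TATAAA was in Hist1h1b and not in Hist1h1c. Only that exact spelling was searched, so a near spelling such as the tatatata in Hist1h1c was not counted. The H1 box was in 4 of 5 H1 promoters, against 7.18% of the 32851 promoters of the table. TATAAA was also in 4 of 5 H1 promoters, against 13.6% of the table. CCAAT was in all 43 H1, H2A, H2B and H3 promoters matched and in 3 of 12 H4 promoters, against 37.4% of the table. The octamer ATTTGCAT was in 6 of 15 H2A and 5 of 13 H2B promoters, against 1.74%. A match is a description of the letters and shows no bound factor.

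In the whole spleen, summed clustered histone RNA stood at 2065 and 1299 CPM in D3TA libraries, against 453 and 487 CPM in WT libraries. The means were 1682 ± 542 CPM in D3TA and 470 ± 23.9 CPM in WT (SD, n = 2 each). The groups did not overlap for the sum or for any family. H1 RNA stood at 741 and 350 CPM in D3TA and at 136 and 161 CPM in WT, and H2A RNA at 788 and 562 CPM in D3TA and at 137 and 151 CPM in WT. H2B RNA stood at 178 and 117 CPM in D3TA and at 75.6 and 71.1 CPM in WT, the narrowest gap of the 5 families. H3 RNA stood at 150 and 115 CPM in D3TA and at 31.9 and 33.6 CPM in WT, and H4 RNA at 208 and 156 CPM in D3TA and at 72.8 and 70.3 CPM in WT. Ccnd3 RNA itself overlapped between genotypes, at 358 and 453 CPM in D3TA and 513 and 448 CPM in WT, which cannot check a change of 1 codon. A sum over the spleen cannot tell more histone-rich cells apart from more histone RNA per cell. The lists of 24 S and 24 G2/M genes, which hold no histone gene, also stood higher in D3TA, at 1507 and 1403 CPM against 593 and 693 CPM in WT for S and at 2038 and 1661 CPM against 438 and 585 CPM in WT for G2/M.

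By gene, 30 of the 62 rose in D3TA and 0 fell, where 6.08% of all 18344 genes tested were called and 5.7% were called higher. Both D3TA libraries were above both WT libraries for 58 of the 62 genes and below them for 2, Hist3h2a and Hist3h2ba. The share of all genes tested that separate this way was not counted. A split of 2 against 2 libraries has an exact permutation p of at least 0.333. The genes' median log2 fold change was 1.92, against a median of 0.00 over all genes tested. Called genes were 1 of 5 H1, 11 of 16 H2A, 4 of 16 H2B, 8 of 12 H3 and 6 of 13 H4, with median log2 fold changes over each family of 1.90, 2.09, 1.78, 1.96 and 1.39. The count rests on single libraries: it was 9 without WT replicate 1, 3 without WT replicate 2, 31 without D3TA replicate 1 and 56 without D3TA replicate 2, of which 55 rose. DESeq2 called 49 higher and 2 lower. Here and below, counts by DESeq2, by unadjusted p and with a library left out mostly stand without the share over all genes. Without that share they do not set the histone genes apart from other genes.

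Of the 5 family sums, that of the linker histones differed most between the D3TA mice. Hist1h1b had 377 and 162 CPM in D3TA spleens, against 49.7 and 62.5 CPM in WT spleens. The fold change was 2.38 on the log2 scale, with a standard error of 0.48. It missed the threshold in edgeR's test (adjusted p = 0.0575) although the groups did not overlap. Hist1h1d rose, with 48.4 and 31.8 CPM in D3TA and 8.03 and 10.4 CPM in WT (log2 fold change 2.22, edgeR adjusted p = 0.0223). Hist1h1e had 201 and 90.2 CPM in D3TA and 41.6 and 49.0 CPM in WT, with an adjusted p of 0.0921. Hist1h1c had 82.2 and 50.2 CPM in D3TA and 30.8 and 31.2 CPM in WT, and Hist1h1a had 31.8 and 16.1 CPM in D3TA and 5.54 and 8.26 CPM in WT, at adjusted p of 0.0968 and 0.0773. In each of the 5 genes D3TA replicate 1 was the highest library, and it was above D3TA replicate 2 for 57 of all 62 histone genes.

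Among H2A genes, 11 of 16 rose. Hist1h2ap had 357 and 277 CPM in D3TA spleens, against 46.5 and 49.9 CPM in WT spleens, or 2.81 higher on the log2 scale (adjusted p from edgeR = 0.00875). Hist1h2ae had 238 and 148 CPM in D3TA and 39.3 and 52.3 CPM in WT (2.18, adjusted p = 0.0299), and Hist2h2ac had 46.5 and 29.3 CPM in D3TA and 14.0 and 13.5 CPM in WT (1.56, adjusted p = 0.0476). Hist1h2ac had 28.4 and 18 CPM in D3TA and 3.40 and 3.58 CPM in WT (2.83, adjusted p = 0.0139). The same direction held at lower levels. Hist1h2ab had 48.6 and 35.2 CPM in D3TA and 7.80 and 7.51 CPM in WT, Hist1h2af had 17.5 and 11.5 CPM in D3TA and 1.92 and 2.26 CPM in WT, and Hist2h2aa1 had 11.8 and 10.6 CPM in D3TA and 4.46 and 4.23 CPM in WT. Hist1h2ak had 8.75 and 6.67 CPM in D3TA and 1.81 and 1.85 CPM in WT, Hist1h2an had 8.45 and 5.01 CPM in D3TA and 1.69 and 1.67 CPM in WT, and Hist1h2ai had 6.85 and 5.77 CPM in D3TA and 1.79 and 1.84 CPM in WT. These 6 genes were called higher. Hist1h2ao, with 1.74 and 1.22 CPM in D3TA and 0.219 and 0.177 CPM in WT, was also called higher but shares its whole coding sequence with Hist1h2ap, so reads of the pair can be split. Hist1h2ag, with 3.90 and 2.43 CPM in D3TA and 0.825 and 0.952 CPM in WT, and Hist1h2ad, with 2.03 and 1.2 CPM in D3TA and 0.542 and 0.462 CPM in WT, were not called.

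Hist3h2a went the other way. It had 5.31 and 6.56 CPM in D3TA spleens and 12.2 and 9.40 CPM in WT spleens, with a log2 fold change of -0.78 that did not pass (edgeR adjusted p = 0.13). Its neighbour Hist3h2ba had 2.56 and 3.08 CPM in D3TA and 6.42 and 6.08 CPM in WT, with a log2 fold change of -1.07 (adjusted p = 0.0746). In both genes all D3TA values were below all WT values.

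Among H2B genes, 4 of 16 rose. Hist1h2bj rose, with 18.1 and 11.5 CPM in D3TA and 3.67 and 4.54 CPM in WT (log2 fold change 1.95, edgeR adjusted p = 0.0374). Hist1h2bb had 13.8 and 8.50 CPM in D3TA and 2.81 and 3.17 CPM in WT, Hist1h2bh had 8.61 and 5.23 CPM in D3TA and 1.29 and 1.55 CPM in WT, and Hist1h2br had 6.01 and 4.49 CPM in D3TA and 1.26 and 1.13 CPM in WT, and these 3 were called higher too. The other H2B genes were not called. Hist1h2bc had 40.2 and 24.1 CPM in D3TA and 21.7 and 18.6 CPM in WT, and Hist1h2be had 32.7 and 28.4 CPM in D3TA and 23.5 and 20.5 CPM in WT. All D3TA values of both genes were above all WT values. Hist2h2bb had 14.5 and 8.43 CPM in D3TA and 3.71 and 4.24 CPM in WT, Hist1h2bm had 11.3 and 4.96 CPM in D3TA and 2.11 and 2.52 CPM in WT, and Hist1h2bn had 10.6 and 4.67 CPM in D3TA and 1.65 and 1.84 CPM in WT. Hist1h2bg had 6.80 and 4.22 CPM in D3TA and 2.30 and 2.03 CPM in WT, and Hist2h2be had 2.76 and 3.60 CPM in D3TA and 2.5 and 2.38 CPM in WT. None of these 5 passed. Hist1h2bf had 3.62 and 1.66 CPM in D3TA and 1.35 and 1.21 CPM in WT, Hist1h2bk had 2.98 and 1.41 CPM in D3TA and 0.400 and 0.544 CPM in WT, and Hist1h2bp had 2.70 and 1.51 CPM in D3TA and 0.413 and 0.503 CPM in WT, also without a call.

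Among H3 genes, Hist1h3c had 50.6 and 43.6 CPM in D3TA spleens and 8.72 and 10.2 CPM in WT spleens (log2 fold change 2.41, edgeR adjusted p = 0.00842). Hist1h3d had the largest called fold change outside Hist1h4m, at 3.11, with 15.0 and 11 CPM in D3TA and 1.52 and 1.69 CPM in WT (adjusted p = 0.0109). Hist1h3e had 31.3 and 20.9 CPM in D3TA and 9.14 and 9.29 CPM in WT (1.60, adjusted p = 0.0389). These H3 genes rose by different amounts from different starting levels. Hist1h3f had 15.6 and 13.7 CPM in D3TA and 3.66 and 3.64 CPM in WT, Hist1h3i had 12.9 and 7.49 CPM in D3TA and 2.48 and 2.92 CPM in WT, and Hist1h3b had 7.04 and 5.97 CPM in D3TA and 1.28 and 1.24 CPM in WT. Hist1h3g had 4.21 and 2.55 CPM in D3TA and 0.438 and 0.558 CPM in WT, and Hist2h3c1, which shares its coding sequence with Hist2h3c2, had 2.32 and 2.10 CPM in D3TA and 0.696 and 0.558 CPM in WT. All 5 were called higher. Hist1h3a, with 6.94 and 4.63 CPM in D3TA and 2.05 and 2.04 CPM in WT, and Hist2h3b, with 2.57 and 1.88 CPM in D3TA and 1.22 and 0.952 CPM in WT, were not.

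Among H4 genes, Hist1h4d had 105 and 77.6 CPM in D3TA spleens and 30.5 and 28.4 CPM in WT spleens (log2 fold change 1.73, edgeR adjusted p = 0.0207). Hist1h4h had 19.2 and 15.7 CPM in D3TA and 7.81 and 7.71 CPM in WT (1.26, adjusted p = 0.0374), and Hist4h4 had 8.78 and 7.73 CPM in D3TA and 3.42 and 3.30 CPM in WT (1.39, adjusted p = 0.0392). All 3 genes were higher in both D3TA mice than in both WT mice. Hist1h4a rose as well, with 3.13 and 3.06 CPM in D3TA and 0.567 and 0.680 CPM in WT, and so did Hist1h4f, with 1.47 and 1.52 CPM in D3TA and 0.232 and 0.408 CPM in WT. Hist1h4i had 31.7 and 19.8 CPM in D3TA and 11.8 and 12.6 CPM in WT, Hist1h4c had 14.5 and 12.5 CPM in D3TA and 8.01 and 7.07 CPM in WT, and Hist2h4 had 8.84 and 6.30 CPM in D3TA and 4.09 and 4.15 CPM in WT. Hist1h4j had 2.18 and 1.55 CPM in D3TA and 0.426 and 0.530 CPM in WT. These 4 did not pass. Hist1h4n, with 5.40 and 3.49 CPM in D3TA and 4.76 and 4.47 CPM in WT, was one of 2 genes whose groups overlapped, with Hist2h3c2.

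**Figure D1:**
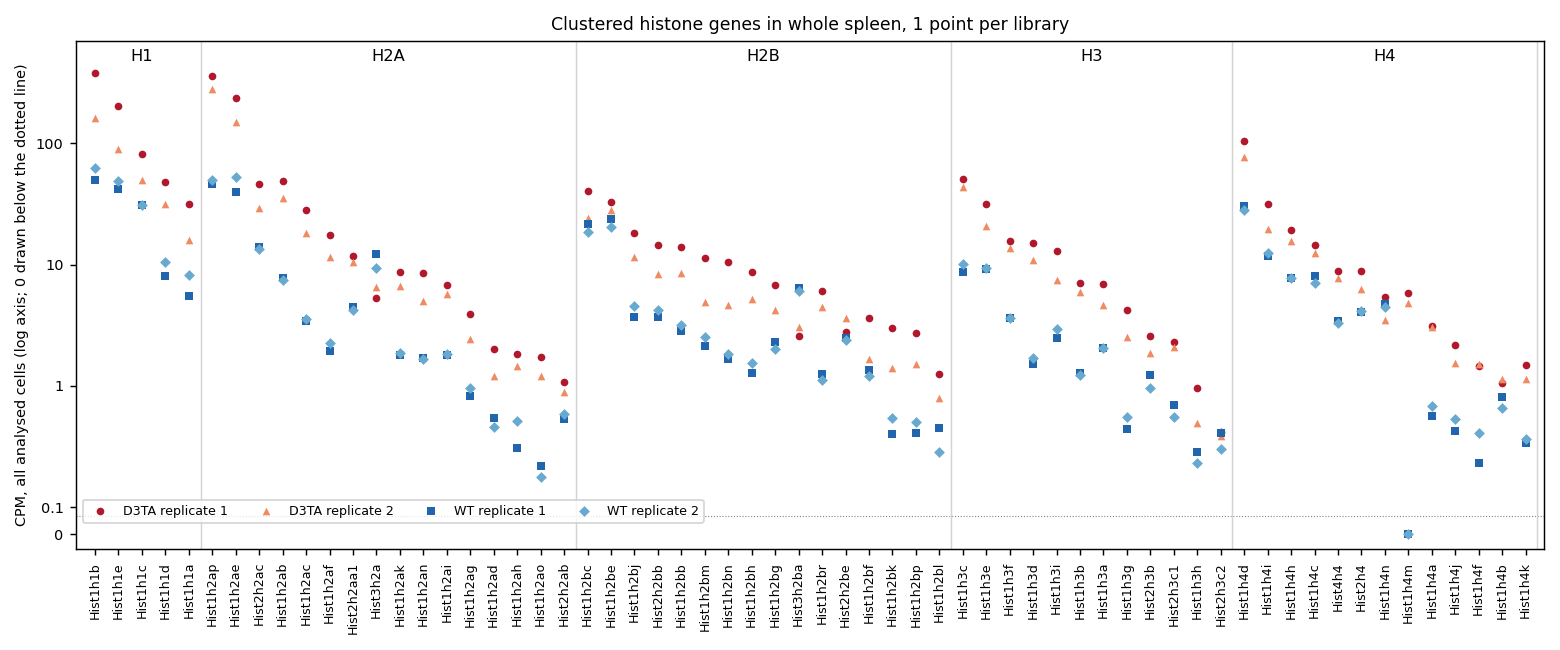
CPM of the clustered histone genes in the whole spleen, by gene and histone family, on a log axis, with a circle and a triangle for D3TA replicates 1 and 2, a square and a diamond for WT replicates 1 and 2, and values of 0 under the dotted line. D3TA libraries lie above WT libraries for 58 of 62 genes, and Hist3h2a and Hist3h2ba lie the other way. The share of all genes that separate so was not counted.

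Hist1h4m needs care. It had 808 and 526 UMIs in D3TA libraries and 0 and 0 UMIs in WT libraries, which hold 164924806 UMIs together. Against the floor of 3 counts over the WT group, it was at least 284-fold higher in D3TA (edgeR adjusted p = 0.00811). It was the only one of 32285 genes at 0 in both WT libraries with 100 or more UMIs in D3TA. The coding sequences of Hist1h4m (13:21811746-21812147, plus strand) and Hist1h4n (13:21831767-21832196, minus strand) are identical over 312 bases, and their promoters match at 298 of 299 aligned bases. Hist1h4n had 746 and 393 UMIs in D3TA and 395 and 356 UMIs in WT. The pair summed to 10.8 and 8.03 CPM in D3TA and to 4.73 and 4.37 CPM in WT, a ratio of group values of 2.07. Both genes were detected across gates in D3TA replicate 1, with 236 UMIs of Hist1h4m and 226 of Hist1h4n in the immature neutrophil gate, 73 and 93 in the B gate, 92 and 63 in the T gate, and 68 and 55 in the erythroid gate. Values of each gene of this pair alone are uncertain, because reads could be assigned to either copy, and how the counting treated them was not tested. Hist1h4m still stands in the counts of genes called in the whole spleen and of genes higher in the early neutrophil gates.

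Other genes that act on histones were counted as well. Of 16 genes for histone mRNA synthesis and 3′ end processing, 1 rose, Slbp, with 104 and 101 CPM in D3TA and 55.7 and 58.9 CPM in WT (log2 fold change 0.92, edgeR adjusted p = 0.0393), and the list's median was 0.10. A count of 1 of 16 is near the 6.08% called over all genes. Npat, the coactivator of histone transcription, had 25.4 and 34.8 CPM in D3TA and 27.9 and 29.5 CPM in WT (0.14, adjusted p = 0.667). Of 11 genes in a list of variant histones, 1 rose, Cenpa, the centromeric H3, at 1.47 (adjusted p = 0.0437). H2afz had a log2 fold change of 1.67 (adjusted p = 0.0616), H2afx of 1.56 (0.0504) and H3f3b of 0.36 (0.545). Of 12 histone chaperones, 2 rose: Chaf1a, a subunit of the assembly factor CAF-1, at 1.63 (adjusted p = 0.0175), and Asf1b at 1.90 (adjusted p = 0.0223). The proliferation genes Pcna, at 1.25 (adjusted p = 0.0206), and Mki67, at 1.65 (0.0439), rose too.

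Cells were then gated by marker genes: a cell belonged to a gate when at least 3 of its 12 markers had a UMI, with a lead of at least 2 over each other gate. Of the gates, the immature neutrophil gate held the largest share of the histone UMIs of D3TA spleens, and WT spleens held few of its cells. The immature neutrophil gate, with markers such as Ltf, Camp and Ngp, held 38.1% and 39.4% of the histone UMIs in D3TA from 24.9% and 17.2% of the cells, against 2.23% and 2.15% from 0.103% and 0.208% of the cells in WT. The neutrophil precursor gate held 8.02% and 8.14% in D3TA and 0.0569% and 0.0391% in WT. In WT the B gate was the main source, with 55.5% and 42.1% of histone UMIs, against 8.94% and 10.8% in D3TA. The erythroid gate held 10.1% and 15.1% in D3TA and 16.0% and 28.2% in WT, from 2.76% and 1.52% of the cells in D3TA and 0.565% and 1.34% in WT. Ungated cells, which have no assigned type, held 20.4% and 15.45% of histone UMIs in D3TA and 11.8% and 6.85% in WT. When the 3 neutrophil gates and the ungated cells were left out, 0 of the 62 genes were called in the whole spleen with edgeR, 28 had an unadjusted p under 0.05, and 0 of all genes tested were called. That count is not one for leaving out neutrophils alone.

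Within gates, summed levels spread over more than an order of magnitude. The erythroid gate had 3851 and 2958 CPM in D3TA and 3408 and 3719 CPM in WT, and the immature neutrophil gate 3292 and 3082 CPM in D3TA and 4668 and 2731 CPM in WT, where it held 23 and 16 cells. The precursor gate had 3859 and 4167 CPM in D3TA. Its 21 cells in WT replicate 1 carried B markers at 4612 CPM and WT replicate 2 held 1, so no comparison was made there. At the low end, macrophages had 346 and 292 CPM in D3TA and 160 and 170 CPM in WT, and plasmacytoid dendritic cells 250 and 164 CPM in D3TA and 164 and 138 CPM in WT. Dendritic cells had 927 and 688 CPM in D3TA and 1059 and 786 CPM in WT. B cells had 702 and 374 CPM in D3TA and 370 and 310 CPM in WT, T cells 693 and 283 CPM in D3TA and 226 and 256 CPM in WT, and plasma cells 474 and 410 CPM in D3TA and 280 and 484 CPM in WT. D3TA replicate 1 was the highest library in the B and T gates, while D3TA replicate 2 was near WT.

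**Figure D2:**
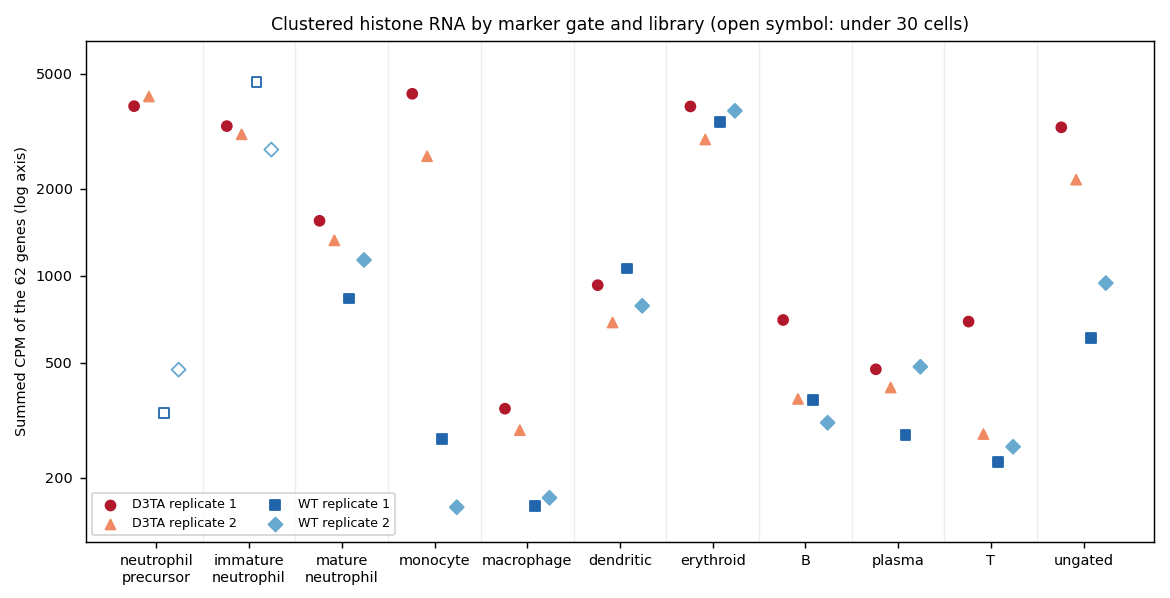
Summed CPM of the 62 genes by gate on a log axis, with 1 symbol per library, D3TA left of WT in each gate and open where a library had under 30 cells. Monocytes stand apart, at 4259 and 2589 CPM in D3TA and 273 and 158 CPM in WT, while erythroid cells lie close together at a high level.

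The monocyte gate, with markers such as Ccr2, Ly6c2 and F13a1, was the 1 gate with called genes of the 7 compared between genotypes: 26 of 29 genes tested rose in D3TA and 0 fell, where 9.49% of 8028 genes were called and 6.24% called higher. The 33 other genes did not pass the filter on low counts, and genes with few UMIs in WT passed it through their D3TA counts, so this count does not describe all 62 genes. The gate held 132 and 90 cells in D3TA and 61 and 52 in WT. Hist1h1b had 1052 and 478 CPM in D3TA monocytes and 4.66 and 5.78 CPM in WT monocytes, or 7.14 ± 0.57 higher on the log2 scale (SE; adjusted p from edgeR = 2.28e-06). Hist1h2ae had 593 and 378 CPM in D3TA and 9.32 and 11.6 CPM in WT (5.50, adjusted p = 2.28e-06), and Hist1h2ap had 546 and 449 CPM in D3TA and 16.3 and 1.93 CPM in WT (5.82, adjusted p = 3.49e-06). The WT values of these genes rest on few molecules: 2 and 3 UMIs of Hist1h1b, 4 and 6 of Hist1h2ae, and 7 and 1 of Hist1h2ap. Hist1h4d had 264 and 169 CPM in D3TA and 23.3 and 15.4 CPM in WT (3.49, adjusted p = 3.81e-05), Hist1h1e 341 and 131 CPM in D3TA and 46.6 and 30.8 CPM in WT (2.63, adjusted p = 0.00148), and Hist1h1c 84.0 and 43.2 CPM in D3TA and 25.6 and 17.3 CPM in WT (1.59, adjusted p = 0.0374). The WT monocytes held no UMI of 7 tested genes, among them Hist1h3c, which had 102 and 73.8 CPM in D3TA, Hist1h1a, which had 72.5 and 35.1 CPM, and Hist1h2ac, which had 50.6 and 33.3 CPM. Hist3h2a again lay lower, with 11 and 11.7 CPM in D3TA and 28 and 15.4 CPM in WT, and it, Hist2h2aa1 and Hist1h2be were not called.

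RNA of the G2/M list also stood higher in D3TA monocytes, and its part in the result was not tested. It stood at 3885 and 3430 CPM in D3TA monocytes and at 46.6 and 73.2 CPM in WT monocytes, with 10 and 12 of its 24 genes detected in WT. Of D3TA monocytes, 36 and 26 were in the S gate and 42 and 17 in the G2/M gate; of WT monocytes, 0 and 4 were in S and 0 and 1 in G2/M. Non-cycling monocytes had a summed level of 352 and 221 CPM in D3TA and 292 and 156 CPM in WT, from 21 and 19 cells in D3TA and 46 and 27 in WT. In these cells alone 1 gene passed the filter on low counts and 0 were called. Mki67 had 550 and 527 CPM in D3TA and 2.33 and 15.4 CPM in WT. Slbp (log2 fold change 1.95, edgeR adjusted p = 0.00139) was the 1 gene called of 13 tested in the processing list. Over all genes tested in this gate, 9.49% were called and 6.24% called higher. In the variant list 5 of 9 rose, led by H2afx at 4.87 and H2afv at 2.97, and 7 of 12 chaperones rose, led by Asf1b, with 87.1 and 91.8 CPM in D3TA and 2.33 and 0 CPM in WT. H2afz rose by 1.87 and Pcna by 2.54, while Npat was at 0.00 (adjusted p = 0.999) and H3f3b at 0.30 (0.618). Immature neutrophil markers were present in both genotypes, at 1656 and 2075 CPM in D3TA with 12 of 12 detected and 949 and 988 CPM in WT with 6 and 9 of 12; their part in the result was not tested.

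No histone gene was called in the other 6 gates compared: B, T, erythroid, mature neutrophil, macrophage and plasma. In the B gate 0 of 61 were called, where 0% of 15597 genes were; 9 had an unadjusted p under 0.05 and DESeq2 called 2. Hist1h2ap had 104 and 57.6 CPM in D3TA B cells and 31.2 and 23.0 CPM in WT B cells (log2 fold change 1.65, edgeR adjusted p = 0.847), Hist1h1b 120 and 42 CPM in D3TA and 34.5 and 33.2 CPM in WT, and Hist1h3d 3.74 and 3.17 CPM in D3TA and 1.29 and 1.5 CPM in WT. The B gate count was 15 without D3TA replicate 2, of which 14 were higher, and 0 without each other library. Of the genes with few UMIs, Hist1h2ao had 0.517 and 0.361 CPM in D3TA and 0.114 and 0.103 CPM in WT, and Hist2h3c2 had 0.0304 and 0.155 CPM in D3TA and 0.436 and 0.308 CPM in WT. Immature neutrophil markers stood at 586 and 752 CPM in D3TA B cells and 47.9 and 23.5 CPM in WT B cells with 12 of 12 detected in each library, and G2/M list RNA at 824 and 467 CPM in D3TA and 299 and 313 CPM in WT. Their part in the values was not tested. Non-cycling B cells had 253 and 203 CPM in D3TA and 247 and 201 CPM in WT.

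In the T gate 0 of 43 were called, where 0.0362% of 13799 genes were, 10 had an unadjusted p under 0.05 and DESeq2 called 2. Hist1h2ac had 5.38 and 3.18 CPM in D3TA T cells and 0.805 and 1.10 CPM in WT T cells (log2 fold change 2.16, edgeR adjusted p = 0.642), and Hist1h2ap 79.7 and 35.7 CPM in D3TA and 9.39 and 20.9 CPM in WT (1.93, adjusted p = 0.763). Hist1h1b had 104 and 19.6 CPM in D3TA and 9.39 and 27.0 CPM in WT, so the groups overlapped. Hist1h4b, with 0.756 and 1.04 CPM in D3TA and 0.716 and 0.642 CPM in WT, did not overlap between genotypes, and Hist2h2ab, with 0.756 and 0.405 CPM in D3TA and 0.716 and 0.642 CPM in WT, overlapped. Without D3TA replicate 2 the count was 2. Immature neutrophil markers stood at 958 and 790 CPM in D3TA and 16.9 and 15.2 CPM in WT.

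In the erythroid gate, whose cells cycle in both genotypes, 0 of 58 were called, where 0.116% of 10344 genes were, 0.0773% higher and 0.0387% lower; 4 had an unadjusted p under 0.05 and DESeq2 called 1. Hist1h1b had 763 and 393 CPM in D3TA and 624 and 561 CPM in WT, and Hist1h3c had 103 and 83.8 CPM in D3TA and 82.9 and 102 CPM in WT, so these groups overlapped. Hist1h2ap had 635 and 753 CPM in D3TA and 582 and 550 CPM in WT. Hist1h4h had 37.8 and 37.3 CPM in D3TA and 64.2 and 71.5 CPM in WT, or -0.93 on the log2 scale (adjusted p from edgeR = 0.48). The median over the tested H4 genes was -0.45 and over H2B genes -0.52. Hist1h2ah had 2.95 and 3.92 CPM in D3TA and 5.45 and 7.37 CPM in WT, and Hist1h2bl had 3.25 and 1.60 CPM in D3TA and 6.05 and 3.32 CPM in WT. Without D3TA replicate 1 the count was 7, of which 6 were lower. G2/M list RNA stood at 5721 and 5285 CPM in D3TA and 5480 and 6292 CPM in WT.

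In the mature neutrophil gate, with markers such as Cxcr2 and Mmp9, 0 of 13 genes tested were called, where 0.297% of 6723 genes were, 0.283% higher and 0.0149% lower; 6 had an unadjusted p under 0.05 and DESeq2 called 2. Hist1h1c had 388 and 451 CPM in D3TA neutrophils and 193 and 307 CPM in WT neutrophils, or 1.00 ± 0.24 higher on the log2 scale (SE; adjusted p from edgeR = 0.15). Hist1h2ac had 124 and 105 CPM in D3TA and 46.0 and 75.1 CPM in WT (1.22, adjusted p = 0.165), Hist1h1d 29.1 and 45.6 CPM in D3TA and 8.62 and 2.09 CPM in WT (2.85, adjusted p = 0.0965), and Hist1h2ap 70.7 and 41.3 CPM in D3TA and 28.7 and 27.1 CPM in WT (1.31, adjusted p = 0.257). Hist1h2bc, at 309 and 275 CPM in D3TA and 240 and 334 CPM in WT, and Hist1h2be, at 77.1 and 80.4 CPM in D3TA and 71.8 and 85.5 CPM in WT, overlapped between genotypes. Immature neutrophil markers stood at 6940 and 5702 CPM in D3TA and 1880 and 1300 CPM in WT, and their part was not tested. Scaling to library totals lowers every log2 fold change of this comparison by about 0.26 and called 1 gene. In the macrophage gate 0 of 4 genes tested were called, where 0.328% of 6398 were, 0.297% higher and 0.0313% lower, with 1 at an unadjusted p under 0.05 and 0 called by DESeq2. Hist1h1b had 30.8 and 29.5 CPM in D3TA macrophages and 5.21 and 7.09 CPM in WT macrophages (2.39, adjusted p = 0.65). In the plasma gate 0 of 32 were called, where 0.0198% of 10113 were, 0.00989% higher and 0.00989% lower, with 4 at an unadjusted p under 0.05 and 0 called by DESeq2. Hist1h1b had 53.0 and 44.0 CPM in D3TA plasma cells and 20.5 and 85.1 CPM in WT plasma cells, and Hist1h4n 3.51 and 2.05 CPM in D3TA and 7.05 and 7.82 CPM in WT. Of Slbp, Npat, H2afz, H2afx, H3f3b, Mki67 and Pcna, 0 were called in the B, T, mature neutrophil, macrophage, erythroid and plasma gates.

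Cell cycle state was read from the S and G2/M lists: S cells had UMIs of at least 4 of 24 S genes and more S than G2/M genes, G2/M cells at least 4 G2/M genes and no fewer than S genes, and non-cycling cells at most 1 gene of each. A state pooled cells of all gates, and cell types were not matched between states. Cells in the G2/M gate made up 16.6% and 10.5% of D3TA cells and 2.36% and 2.42% of WT cells. S cells made up 23.2% and 21.2% of D3TA cells and 6.47% and 17.9% of WT cells. Non-cycling cells made up 27.47% and 27.97% of D3TA cells and 73.1% and 38.3% of WT cells. The S and non-cycling shares thus differed between the WT libraries, of which replicate 1 had shallow cells. The part of depth in these 2 shares was not tested. At an equal depth of 1000 UMIs per cell, the share with at least 2 G2/M genes was 19.9% and 13.7% in D3TA and 4.76% and 3.35% in WT, with 531 and 511 D3TA cells and 7335 and 257 WT cells left out as shallower. G2/M cells held 62.9% and 65.3% of histone UMIs in D3TA and 34.6% and 46.3% in WT. Their summed histone level was 4850 and 4126 CPM in D3TA and 3234 and 3512 CPM in WT. S cells had 1758 and 1085 CPM in D3TA and 530 and 469 CPM in WT, and non-cycling cells 575 and 307 CPM in D3TA and 255 and 220 CPM in WT.

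Histone RNA was highest in cells that had RNA of both lists. Cells with at least 12 S and at least 12 G2/M genes had 5066 CPM in D3TA (1976 cells) and 3757 CPM in WT (239 cells). Cells with at least 12 S genes but at most 1 G2/M gene had 193 CPM in D3TA (33 cells) and 154 CPM in WT (34 cells). Cells with at least 12 G2/M and at most 1 S gene had 973 CPM in D3TA (63 cells) and 2696 CPM in WT (17 cells). The gates rest on gene lists, not on measured DNA content, and the S gate held cells with little histone RNA beside cells with much.

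**Figure D3:**
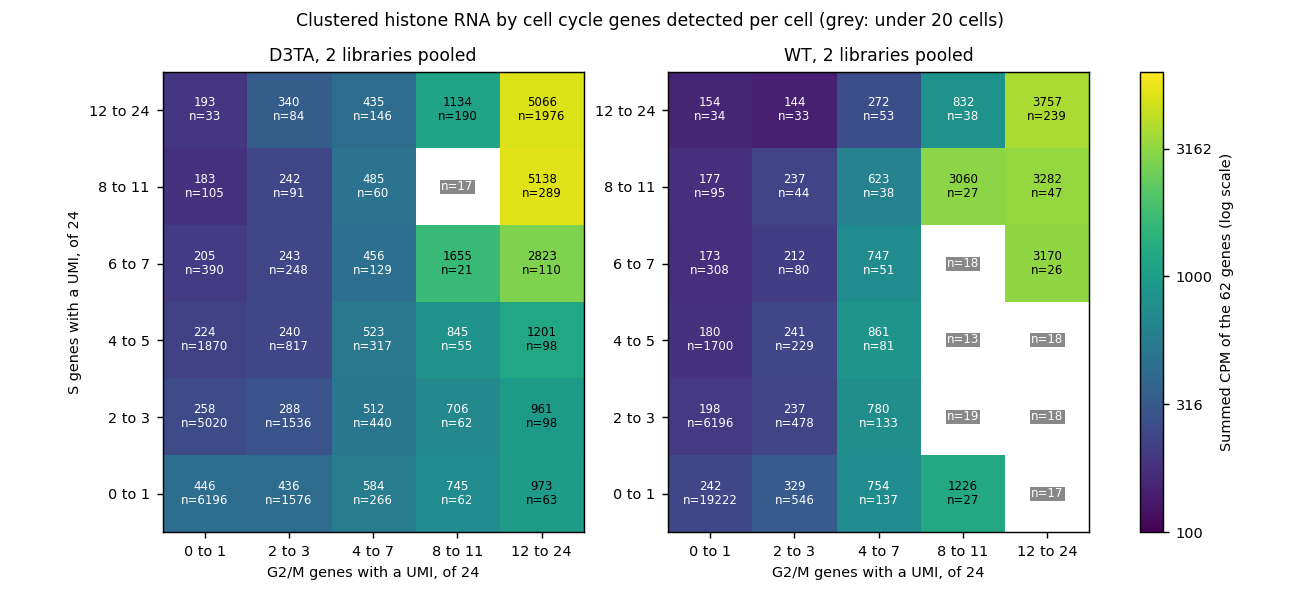
Summed CPM of the 62 genes by the number of S genes (vertical axis) and G2/M genes (horizontal axis) with a UMI in a cell, on a log colour scale, for D3TA left and WT right. Each box prints the CPM and the number of cells of the 2 pooled libraries, and boxes under 20 cells are blank. The brightest boxes lie where 12 or more G2/M genes meet 8 or more S genes, and the row of 12 or more S genes is dark, at 193 CPM in D3TA and 154 CPM in WT, where at most 1 G2/M gene was detected.

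Against non-cycling cells of the same libraries, 58 of 61 genes rose in the G2/M gate and 1 fell, where 60.8% of 15200 genes were called and 27.5% called higher. Hist1h2ap had 923 and 979 CPM in D3TA and 527 and 497 CPM in WT in G2/M cells, against 24.3 and 13.8 CPM in D3TA and 8.38 and 4.73 CPM in WT in non-cycling cells (log2 fold change 6.03, edgeR adjusted p = 7.46e-07). Hist1h1b had 893 and 534 CPM in D3TA and 568 and 579 CPM in WT in G2/M cells, against 30.9 and 9.75 CPM in D3TA and 9.64 and 6.35 CPM in WT (5.78, adjusted p = 1.66e-06). In both genes every G2/M value was far above every non-cycling one. Hist1h3c had 143 and 168 CPM in D3TA and 115 and 122 CPM in WT in G2/M cells, against 2.45 and 1.88 CPM in D3TA and 1.10 and 0.646 CPM in WT (6.62, adjusted p = 7.27e-07). Hist1h4d had 272 and 267 CPM in D3TA and 226 and 206 CPM in WT in G2/M cells, against 18.8 and 14.2 CPM in D3TA and 16.9 and 12.7 CPM in WT (3.97, adjusted p = 4.77e-07). Hist1h2ae rose by 6.02 on the same scale (adjusted p = 8.91e-07). Family medians ran from 2.57 for H4 and 3.53 for H1 to 4.14 for H3, 4.17 for H2B and 4.81 for H2A, against -0.14 over all genes tested. Hist1h2ah (5.48) and Hist1h2bl (4.24), with few UMIs, rose too.

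A small set moved little. Hist1h2bc had 55.0 and 43.2 CPM in D3TA and 25.8 and 25.2 CPM in WT in G2/M cells, against 66.9 and 31.1 CPM in D3TA and 26.3 and 25.6 CPM in WT in non-cycling cells (log2 fold change 0.04, edgeR adjusted p = 0.865). Hist1h1c rose by 0.91 (adjusted p = 0.0161) and Hist1h2be by 0.92 (adjusted p = 0.000141). Hist3h2a fell by 0.46 (adjusted p = 0.0276), with 4.6 and 5.82 CPM in D3TA and 10.9 and 6.36 CPM in WT in G2/M cells and 6.86 and 6.75 CPM in D3TA and 12.8 and 11.8 CPM in WT in non-cycling cells; that call was lost without WT replicate 1, without WT replicate 2, without D3TA replicate 1 and without D3TA replicate 2. Hist4h4, at 0.38, was not called.

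In the S gate 40 of 61 genes rose and 4 fell against non-cycling cells, where 29.9% of genes were called and 16.4% called higher. Hist1h2ap had 303 and 236 CPM in D3TA and 68.6 and 54.0 CPM in WT in S cells, against 24.3 and 13.8 CPM in D3TA and 8.38 and 4.73 CPM in WT (log2 fold change 3.39, edgeR adjusted p = 5.22e-05). Hist1h1b rose by 3.35, Hist1h2ae by 3.44, Hist1h3c by 3.42 and Hist1h4d by 1.31. The genes with few UMIs named by rank, Hist1h2ah (3.46) and Hist1h2ao (1.70), rose as well. The 4 that fell were Hist1h2bc (-1.17, adjusted p = 0.0015), Hist1h1c (-0.89, adjusted p = 0.035), Hist3h2a (-0.52, adjusted p = 0.0295) and Hist1h2be (-0.45, adjusted p = 0.021). With states set from at least 12 genes Hist1h2be turned to 0.28 (edgeR adjusted p = 0.0687), and its call was lost without WT replicate 2, without D3TA replicate 1 and without D3TA replicate 2. Hist1h1c had 48.9 and 33.6 CPM in D3TA and 26.2 and 24.4 CPM in WT in S cells, against 114 and 62.5 CPM in D3TA and 31.1 and 30.2 CPM in WT in non-cycling cells. Non-cycling mature neutrophils alone had 394 and 454 CPM of Hist1h1c in D3TA and 205 and 307 CPM in WT. The part of the mix of cell types in the falls was not tested. The count of falling genes was 1 to 3 when a library was left out, and Hist3h2a lost its call without each of the 4. Scaling to library totals raises each value by about 0.16 and kept the calls of Hist1h1c and Hist1h2bc. Set against G2/M cells, S cells were lower in 60 of 61 genes, where 45.4% of genes were called and 22.7% called lower, with Hist1h2ap and Hist1h3c at -2.64 and -3.20 and Hist2h2ab and Hist1h2bl at -2.31 and -2.72. The 1 gene not called was Hist3h2a. When the states were set from at least 12 genes in place of 4, 30 of 61 were lower. Cells with many S genes could also fall in the G2/M gate, where their G2/M genes were no fewer. This comparison therefore does not place histone RNA after S phase.

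Of the 16 synthesis and processing genes, 7 rose in S cells and 13 rose and 1 fell in G2/M cells, against non-cycling cells. Over all genes tested, 16.4% were called higher and 13.5% lower in S cells. In G2/M cells 27.5% were called higher and 33.2% lower. Slbp rose by 1.04 in S and 1.76 in G2/M cells (edgeR adjusted p = 0.000325 and 3.8e-06), and Npat by 0.48 and 0.67 (0.0136 and 0.000841). Of 10 variants tested, 6 rose and 1 fell in S and 9 rose in G2/M cells. H2afx rose by 1.51 in S and 4.39 in G2/M, H2afz by 1.14 and 2.78, and H3f3b, a replication-independent H3.3 gene, was at -0.34 in S (adjusted p = 0.0752) and rose by 0.45 in G2/M (0.014). Of 12 chaperones, 9 rose in each state, with Asf1b at 2.68 in S and 4.46 in G2/M and Chaf1a at 3.16 in S. Mki67 rose by 3.95 and 6.80, and Pcna by 2.75 and 3.34.

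The step between cycling and non-cycling cells was then compared between genotypes. In this interaction 0 of 60 genes were called by edgeR, where 0.0533% of 15011 genes were, 0.0133% higher and 0.04% lower; 14 had an unadjusted p under 0.05 and DESeq2 called 2. Hist2h2ac came nearest, with 72.7 and 53.3 CPM in cycling and 6.20 and 4.11 CPM in non-cycling D3TA cells, and 29.2 and 27.6 CPM in cycling and 8.13 and 6.35 CPM in non-cycling WT cells. The difference between the genotypes' log2 steps was 1.44 (edgeR adjusted p = 0.0713). Hist1h3d followed at 1.37 and Hist1h4d at 0.91, each with an adjusted p of 0.0968. For 3 genes with large steps the difference was 0.04 ± 0.34 (SE) for Hist1h1b, 0.24 ± 0.34 for Hist1h2ap and 0.06 ± 0.36 for Hist1h3c. Of the genes with few UMIs, Hist1h4f was at 2.22 and Hist1h4b at 1.19, not called. The count was 5 without D3TA replicate 1 and 13 without D3TA replicate 2, of which 5 were lower. Scaling to library totals raises each difference by about 0.21.

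Along the neutrophil gates of D3TA spleens, most histone genes were highest in the early gates and a small set was higher in the mature gate than in both. Immature neutrophils were compared with mature neutrophils of the same 2 mice: 44 of 56 genes tested were higher and 7 lower, where 57.8% of 11562 genes were called, 31.7% higher and 26% lower. The other 6 genes did not pass the filter on low counts, which a gene could pass through 1 stage alone. Precursors against mature neutrophils gave 42 higher and 8 lower, where 77.5% were called, 41.4% higher and 36.1% lower. The same 42 genes were higher in both comparisons and the same 7 lower in both, and the comparisons share their mature samples. With 3 genes at 0 in the mature sums set to their floor, the median log2 fold change was 2.47 for immature and 2.64 for precursor cells, against 0.14 and 0.20 over all genes tested.

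Among the genes that were higher early, Hist1h1b had 866 and 677 CPM in precursors, 546 and 356 CPM in immature and 60.3 and 18.1 CPM in mature neutrophils. Its log2 fold change was 3.35 for immature and 3.69 for precursor over mature cells (edgeR adjusted p = 7.2e-08 and 1.28e-08). Hist1h2ap had 738 and 1063 CPM in precursors, 662 and 710 CPM in immature and 70.7 and 41.3 CPM in mature cells (3.40 and 3.33), and Hist1h2ae 526 and 565 CPM in precursors, 357 and 317 CPM in immature and 33.3 and 6.52 CPM in mature cells (3.74 and 3.98). Mature cells were the lowest stage in both mice. Hist2h2ac had 105 and 104 CPM in precursors, 69.5 and 69.2 CPM in immature and 5.17 and 1.45 CPM in mature cells (3.95 and 4.09). Hist1h3c had 74.9 and 117 CPM in precursors, 91.9 and 133 CPM in immature and 9.61 and 2.90 CPM in mature cells (3.63 and 2.93), and Hist1h4d 155 and 220 CPM in precursors, 177 and 198 CPM in immature and 22.2 and 12.3 CPM in mature cells (3.14 and 2.66). Hist1h3c was higher in the immature than in the precursor gate in both mice, and Hist1h4d was higher there in replicate 1 and lower in replicate 2. Hist1h2ad, Hist1h2ah and Hist1h4f were at 0 in both mature sums. Hist1h2ah had 4.66 and 7.60 CPM in precursors and 2.78 and 3.25 CPM in immature cells, and Hist1h4f 2.42 and 4.18 CPM in precursors and 2.51 and 4.07 CPM in immature cells.

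The other set rose toward the mature stage. Hist1h1c, which codes for linker histone H1.2, had 46.8 and 47.5 CPM in precursors, 126 and 111 CPM in immature and 388 and 451 CPM in mature neutrophils. Its log2 fold change was -1.93 for immature and -3.72 for precursor over mature cells (edgeR adjusted p = 7.89e-08 and 2.82e-10). Hist1h2bc had 42.1 and 32.7 CPM in precursors, 47.2 and 45.9 CPM in immature and 309 and 275 CPM in mature cells (-2.76 and -3.53), so nearly all of its rise lay between the immature and mature gates. Hist1h2ac had 55.9 and 60.0 CPM in precursors, 44.5 and 46.6 CPM in immature and 124 and 105 CPM in mature cells (-1.46 and -1.58). Hist1h4i had 70.6 and 57.8 CPM in precursors, 30.9 and 26.5 CPM in immature and 87.7 and 73.8 CPM in mature cells (-1.61 and -0.90), and Hist1h2be 32.2 and 44.8 CPM in precursors, 47.3 and 45.4 CPM in immature and 77.1 and 80.4 CPM in mature cells (-0.88 and -1.64). For Hist1h2ac and Hist1h4i the immature gate was the lowest stage in both mice. Hist2h2aa1 had 15.7 and 22.4 CPM in precursors, 17.6 and 24.8 CPM in immature and 27.8 and 27.5 CPM in mature cells (-0.58 and -1.20), and Hist3h2a 2.61 and 1.90 CPM in precursors, 3.61 and 4.30 CPM in immature and 9.61 and 7.96 CPM in mature cells (-1.31 and -2.51). Hist2h3c1 was lower in precursors alone (-1.37), a call lost when libraries were scaled to their totals. That scaling raises precursor values by 0.58 and immature values by 0.11, and kept the direction and call of the 7 genes. G2/M list RNA stood at 3056 and 3042 CPM in precursors, 3245 and 3848 CPM in immature and 365 and 342 CPM in mature cells.

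**Figure D4:**
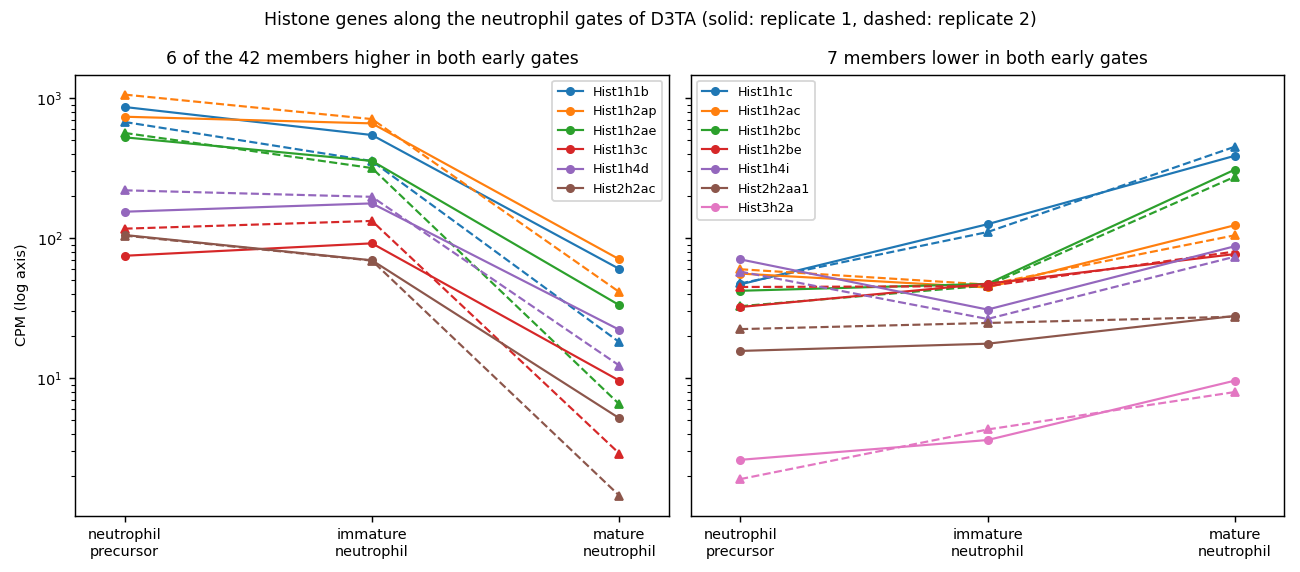
CPM on a log axis of 6 genes higher early (left) and the 7 genes lower early (right) in the precursor, immature and mature neutrophil gates of D3TA spleens, with a solid line for replicate 1 and a dashed line for replicate 2. The left lines drop at the mature gate, Hist1h2ae to 33.3 and 6.52 CPM, and the right lines climb, Hist1h1c to 388 and 451 CPM.

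The genes were then counted by annotated end. Of 20 tested genes with at least 300 bases past the stop codon, 10 were higher and 6 lower in immature than in mature neutrophils, with a median log2 fold change of 0.74. Of 36 tested genes with shorter ends, 34 were higher and 1 lower, Hist2h2aa1, with a median of 2.74 with genes at 0 set to their floor. For precursors the long-ended genes split into 9 higher and 7 lower with a median of 0.14, and the short-ended into 33 higher and 1 lower with a median of 2.90. The limit of 300 bases was chosen after the data were seen and no test was made of the split. Short ends include genes annotated with nothing past the stop codon, 13 of all 62, whose true end is not known. The libraries were made from poly(A) RNA, and which share of each gene's messages carries a tail was not measured.

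**Figure D5:**
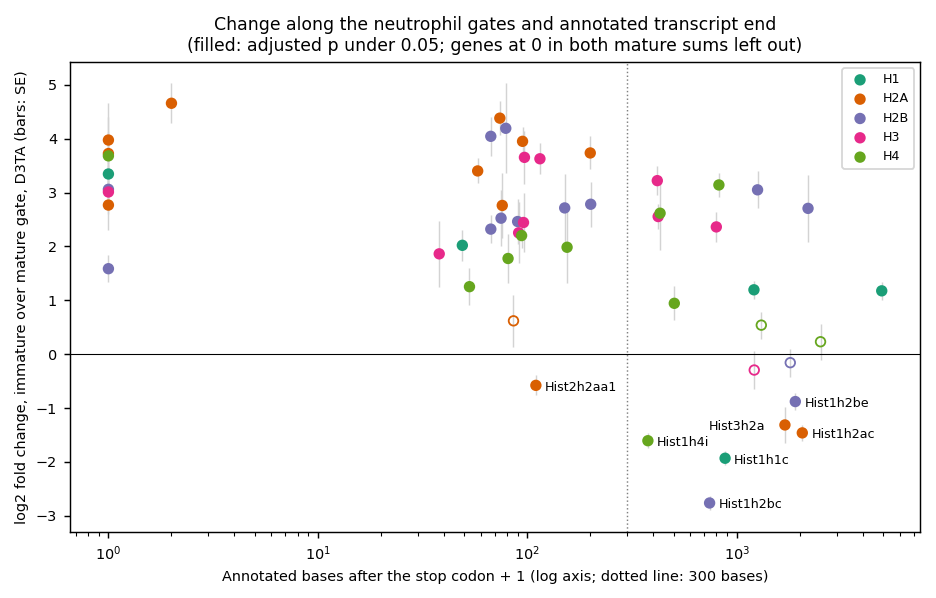
Log2 fold change of immature over mature neutrophils in D3TA (with SE bars) against the annotated bases after the stop codon plus 1, on a log axis, coloured by family, filled where called, without the 3 genes at 0 in both mature sums. The 6 called genes below 0 right of the dotted line at 300 bases are Hist1h1c, Hist1h2ac, Hist1h2bc, Hist1h2be, Hist1h4i and Hist3h2a.

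Non-cycling mature neutrophils were also compared with non-cycling B cells of the same 4 libraries. Of the 7 late genes, 6 were tested and each of the 6 was higher in neutrophils, as were 3 others, and Hist3h2a did not pass the filter on low counts. The 7 genes were picked for their level in mature neutrophils of the D3TA libraries, whose non-cycling cells are used again here. Their direction in those libraries is thus not independent of that choice. A gene could also pass the filter through its neutrophil counts alone. Of 10 genes tested, 9 were higher and 0 lower, where 74% of 8055 genes were called, 33.9% higher and 40.1% lower, and 52 genes were not tested. Hist1h1c had 394 and 454 CPM in D3TA and 205 and 307 CPM in WT in non-cycling mature neutrophils, against 25.0 and 20.8 CPM in D3TA and 27.4 and 20.9 CPM in WT in non-cycling B cells (log2 fold change 4.46, edgeR adjusted p = 2.81e-07). Hist1h2bc had 314 and 256 CPM in D3TA and 240 and 344 CPM in WT in neutrophils, against 13.7 and 15.1 CPM in D3TA and 23.7 and 18.2 CPM in WT in B cells (4.64, adjusted p = 6.56e-09). Hist1h2ac had 139 and 101 CPM in D3TA and 31.6 and 68.3 CPM in WT in neutrophils, against 4.05 and 3.66 CPM in D3TA and 2.39 and 2.48 CPM in WT in B cells (5.25, adjusted p = 9.73e-08). Every neutrophil value of these 3 genes was above every B cell value. Hist1h4i was higher by 3.73, Hist2h2aa1 by 3.38, Hist1h1e by 2.86, Hist1h2ap by 2.71 and Hist1h2be by 2.32. Hist1h1b, at 1.28, lost its call when libraries were scaled to their totals, which lowers each value by 0.65. Hist1h4d was not called. H3f3b was higher by 2.06 (adjusted p = 3.98e-06) and Slbp by 0.66 (0.0108), and Npat was lower by 1.2 on the log2 scale. In these cells 2 of 14 processing genes were higher and 8 lower, 5 of 8 variants were higher, and 0 of 9 chaperones were higher and 6 lower.

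Non-cycling plasma cells differed less from B cells, and the result depended on scaling. Of 10 genes tested 5 were higher and 1 lower, where 39.8% of 8055 genes were called, 13.8% higher and 26% lower. They came from the same fit, under the same limit of the filter. Hist1h2ac had 10.4 and 20.7 CPM in D3TA and 19.0 and 1.5 CPM in WT in plasma cells, against 4.05 and 3.66 CPM in D3TA and 2.39 and 2.48 CPM in WT in B cells (log2 fold change 2.56, edgeR adjusted p = 0.00517). Hist1h2be had 6.25 and 0 CPM in D3TA and 8.15 and 4.49 CPM in WT in plasma cells, against 17.8 and 32.7 CPM in D3TA and 25.5 and 26.0 CPM in WT in B cells (-1.56, adjusted p = 0.0191). Scaled to library totals, which lowers each value by 0.83, 1 gene was higher, Hist1h2ac, and 3 were lower. The count of called genes was 3 without D3TA replicate 2 and 1 without WT replicate 2. D3TA replicate 2 gave 29 plasma cells here.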

How the data were processed

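Spleen cells of 2 D3TA and 2 WT mice were sequenced as 1 droplet library per mouse. The authors deposited UMI counts per gene and barcode, which per the file headers come from Cell Ranger 7.0.1 and per the submitters' processing notes use mm10; the treatment of introns and of reads with several matches is not given in the sources used here. A barcode was kept from 500 UMIs and 250 genes upward, if mitochondrial genes gave no more than 10% of its UMIs. Scrublet (scanpy 1.11.5, expected rate 6%) marked doublets, which were removed; its automatic threshold called 0 cells in WT replicate 1, which got the mean of the thresholds set in the other 3. It removed 5.66% and 3.44% of D3TA cells and 1.47% and 2.50% of WT cells. This left 11792 and 10573 D3TA cells and 22286 and 7679 WT cells.

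Marker lists gave 15 gates and the cell cycle states; no list held a clustered histone gene. The members and lists were chosen with earlier results of these data known. Counts were summed per library and gate and tested with edgeR 4.0.16's quasi-likelihood test (filterByExpr, TMM factors, R 4.3.3), with Benjamini-Hochberg adjustment over all genes tested and a threshold of 0.05. Every gate compared between genotypes held at least 30 cells and 50000 UMIs in each library; non-cycling subsets and some alternatives held fewer cells, such as 29 plasma cells and 19 monocytes of D3TA replicate 2. Fits between states or gates of the same mice had the library as a block. A single value of 2 against 2 mice cannot reach an exact permutation p below 0.333, so sums were described without a test. Floors of 3 counts cover counting error only, while standard errors come from the edgeR fit and also hold spread between libraries. P-values between genotypes measure the spread between 2 mice per genotype. P-values of fits with the library as a block measure the spread of differences within mice. For the gates along D3TA neutrophils these are the 2 D3TA mice alone.

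Every member with at least 500 UMIs over the libraries (53) is named with its values in at least 1 comparison; of the rest, the 2 with the smallest p in each fit; and of other genes up to 4 called per list and fit, of which the text prints some, with Slbp, Npat, H2afz, H2afx, H3f3b, Mki67 and Pcna named or counted where tested. Alternatives were DESeq2 1.42.0, other scaling, filters, gates and states, doublets kept, the replicate number as a block, and leaving out 1 library at a time. The scripts were checked on simulated data.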

Additional observations from a re-analysis of the deposited data

Results flagged for a closer look

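For 3 genes the step between cycling and non-cycling cells went one way in both D3TA libraries and the other way in both WT libraries, and none passed the test of that difference with edgeR's quasi-likelihood test and Benjamini-Hochberg adjustment over all genes. Hist2h4 had 11.5 and 8.31 CPM in D3TA and 2.98 and 4.06 CPM in WT in cycling cells, and 5.12 and 4.52 CPM in D3TA and 4.69 and 4.52 CPM in WT in non-cycling cells; its log2 steps differed by 1.22 between genotypes (edgeR adjusted p = 0.115). Hist2h3c1 had 3.10 and 3.22 CPM in D3TA and 0.432 and 0.551 CPM in WT in cycling cells, and 1.36 and 1.35 CPM in D3TA and 0.945 and 0.699 CPM in WT in non-cycling cells, a difference of 1.75 (adjusted p = 0.145). Hist1h1c had 83.7 and 56.8 CPM in D3TA and 35.7 and 38.8 CPM in WT in cycling cells, and 114 and 62.5 CPM in D3TA and 31.1 and 30.2 CPM in WT in non-cycling cells, a difference of -0.78 (edgeR adjusted p = 0.122). The states pooled cells of all gates, and the part of the mix of cell types in these steps was not tested.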

How the results depend on the processing

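Counts below are clustered histone genes called between D3TA and WT unless another comparison is named, and the cause of a move was not tested unless fewer genes or cells were tested. They stand without the share over all genes, so they do not set the histone genes apart from other genes. In the whole spleen DESeq2 called 51, non-cycling cells alone gave 1 of 43 tested, cells outside the neutrophil gates and the ungated cells gave 0, and leaving out a library gave 3 to 56. DESeq2 called 2 in the B gate, the T gate, the mature neutrophil gate and the interaction, and 1 in the erythroid gate. Without the filter on low counts the T gate had 1, mature neutrophils 9, erythroid cells 3, plasma cells 1, the interaction 6 and mature neutrophils against B cells 16. Scaling to library totals gave 1 in mature neutrophils and 2 in the interaction. The stricter cell filter gave 1 in mature neutrophils, the stricter gate gave 1 in erythroid cells, and non-cycling monocytes gave 0. States from 12 genes gave 30 between S and G2/M cells. Leaving out a library gave 0 to 15 in the B gate, 0 to 2 in the T gate and in mature neutrophils, 0 to 7 in erythroid cells, 0 to 13 in the interaction and 1 to 5 in plasma against B cells; for the D3TA neutrophil gates it leaves no residual degrees of freedom and was not run. The stricter cell filter put the summed level at 508 and 543 CPM in WT replicates 1 and 2.

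A direction turned round in 4 single-gene values: in non-cycling cells alone Hist2h2ac was at -0.18 and Hist1h4h at -0.12 in the whole spleen and Hist1h1e at -0.41 in monocytes, and with states from 12 genes Hist1h2be was at 0.28 in S against non-cycling cells (log2).

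Replicate numbers recur in both genotypes but name no shared animal or day, and deviations of same-numbered libraries correlated at -0.108 over 15075 genes. The replicate block gave 29 in the whole spleen, 28 in monocytes, 4 in mature neutrophils, 1 in erythroid cells and 0 in the B, T, macrophage and plasma gates; the crossed replicate block gave 46 in the whole spleen. These settings, and those for gates, states, filters and scaling, were partly chosen after seeing the data: the non-cycling and neutrophil-free subsets, states from 12 genes, library totals and the crossed block. Few cells also limit precision in some gates, such as 29 non-cycling plasma cells in D3TA replicate 2.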

Other observations

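In gates with few cells, single libraries had high summed histone levels. Basophil or mast cells had 6412 and 5079 CPM in D3TA, from 66 and 22 cells, and 699 and 2710 CPM in WT, from 16 cells and 1 cell. The megakaryocyte or platelet gate had 853 and 2713 CPM in D3TA, from 5 and 3 cells, and 7215 and 2352 CPM in WT, from 4 and 2 cells. The NK gate had 6348 and 256 CPM in D3TA, from 4 and 44 cells, and 196 and 222 CPM in WT, from 71 and 86 cells, so its high value rests on 4 cells. No test was made in these gates.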
